A study of Mus musculus with 24 samples.

Results

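Commitment to the B lineage, the passage of pre-pro-B into pro-B cells, was followed in mice that lack Ki-67, by setting the 4 ATAC-seq libraries labelled Mki67-/- pre-pro-B against the 4 labelled Mki67-/- pro-B, 8 of the 24 libraries in the series. All 8 came from sorted bone marrow cells described as lymphoid progenitors and carry the same genotype, Mki67-/-, so the contrast compares stages within 1 genotype. The 8 WT libraries of the same 2 stages (4 each) are used here only to ask whether the step differed. The third stage of the series, small pre-B, is not analysed here. Age, sex, strain, the surface markers of the sort and the number of mice are not given in the sources used here. Whether each library had its own mouse is not stated either; p-values therefore rest on the spread among libraries, and libraries of both stages that share a mouse would not be independent. ATAC-seq reads out DNA that is open to a transposase; here the cells were permeabilised with digitonin and Tween-20 during the transposase reaction. The values are the authors' peak lists, 1 per library, on mm10.

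Pre-pro-B cells are the earliest bone marrow progenitors in the B lineage and keep some potential for other fates. Commitment takes place as they become pro-B cells: E2A (Tcf3) and EBF1 switch on the B-cell program, PAX5 closes off alternative fates, and the cells rearrange the immunoglobulin heavy chain gene (Igh) with the RAG1-RAG2 recombinase. The pro-B cell also starts to make the surrogate light chain, built from the Vpreb and Igll1 products, and the CD79A-CD79B signalling pair, which together with a rearranged heavy chain form the pre-B-cell receptor. Ki-67, the product of Mki67, is a nuclear protein of cycling cells that coats chromosomes in mitosis. The title of the series concerns accessibility and the rearrangement of antigen receptor genes.

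In each library, overlapping entries on chromosomes 1 to 19 and X were joined, and the 40000 peaks with the highest -log10 q were kept, so that libraries of different yield were compared on lists of equal length. A peak's rank is given on a scale on which 100 is the strongest of these 40000. Before this selection the pre-pro-B libraries held 79703, 87169, 87225 and 67920 peaks and the pro-B libraries 76062, 71244, 77213 and 73415, and the ranges overlapped (exact permutation test, p = 0.257, adjusted p = 0.289 over 9 library measures). The overlap rests on pre-pro-B replicate 4, the library with the fewest peaks: the mean difference was -6020.75 peaks with it and -10215.5 without it (exact permutation test, p = 0.0286). Read totals are not part of the peak lists, and the depth is unknown; the lowest -log10 q among the 40000 ran from 14.7, in pre-pro-B replicate 4, to 36.3. The stages differed in peak width. Among the 40000, mean width was 801, 818, 747 and 650 bp in pre-pro-B against 561, 505, 596 and 573 bp in pro-B cells, and the deposited peaks covered 42.8 ± 6.78 Mb against 30.6 ± 2.40 Mb (SD, n = 4 each). In both measures every pre-pro-B library lay above every pro-B library (exact permutation test, p = 0.0286, the smallest that 4 against 4 libraries allow, adjusted p = 0.0367). The p for covered length was 0.0571 when only peaks with a -log10 q of 5 or more were kept, and likewise when any one of the 4 pro-B libraries was left out. Peaks within 1 kb of a gene end were a smaller share of the 40000 in pre-pro-B (28.1 ± 0.257%) than in pro-B cells (30.4 ± 0.232%, SD, n = 4 each), with the same p and adjusted p. A bulk library cannot tell fewer cells with an open site from a site less open in each cell.

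The promoters of 6 B-lineage genes show the step at single sites: each had a peak among the 40000 in 4 of 4 pro-B and 0 of 4 pre-pro-B libraries. They were chosen from the transcription factor and receptor lists below and are ordered by peak rank in pro-B cells. In these lists, windows of Erg (mean rank 95.4) and Cd22 (87.3) also gained a peak but are not printed. Each window runs from 250 bases before a RefSeq start of the gene to 50 after it (GRCm38.p6, printed 5′ to 3′ along the gene). A gene can have more than 1 such start. At Vpreb2 and Lef1 the start used lies inside the gene limits, which begin at chr16:17979445 and chr3:131110297. Capitals mark matches to 11 short motifs searched on both strands. EBF was searched as CCCNNGGGA and the E-box that E2A prefers as CAGCTG. The common core of ETS factors was searched as ACAGGAAG, the form that PU.1 prefers as GAGGAAGT, and the site of RUNX factors as TGTGGTT. The remaining 6 motifs were CTTTGAT for the factors TCF and LEF, AGATAA for the GATA family, AAANNGAAA for the IRF family, ATGCAAAT for the octamer bound by POU2F factors, TGGGAA for the IKAROS family, and GGGCGG for the GC box. The 6 sites are Cd79a (chr7:24897247-24897546, plus strand), Pou2af1 (chr9:51213440-51213739, plus strand), Vpreb2 (chr16:17980315-17980614, plus strand), Vpreb1 (chr16:16869206-16869505, minus strand), Pax5 (chr4:44710645-44710944, minus strand) and Lef1 (chr3:131110073-131110372, plus strand).
Cd79a: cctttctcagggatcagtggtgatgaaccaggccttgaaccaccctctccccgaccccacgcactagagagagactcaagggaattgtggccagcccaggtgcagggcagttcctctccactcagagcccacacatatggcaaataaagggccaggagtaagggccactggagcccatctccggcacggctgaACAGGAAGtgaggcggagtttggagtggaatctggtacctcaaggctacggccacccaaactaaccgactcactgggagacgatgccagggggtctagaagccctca
Pou2af1: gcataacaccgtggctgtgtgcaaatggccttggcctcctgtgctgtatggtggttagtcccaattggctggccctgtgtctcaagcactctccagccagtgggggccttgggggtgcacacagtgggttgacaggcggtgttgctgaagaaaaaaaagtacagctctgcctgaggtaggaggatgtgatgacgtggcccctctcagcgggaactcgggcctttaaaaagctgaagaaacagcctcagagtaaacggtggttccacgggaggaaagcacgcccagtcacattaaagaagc
Vpreb2: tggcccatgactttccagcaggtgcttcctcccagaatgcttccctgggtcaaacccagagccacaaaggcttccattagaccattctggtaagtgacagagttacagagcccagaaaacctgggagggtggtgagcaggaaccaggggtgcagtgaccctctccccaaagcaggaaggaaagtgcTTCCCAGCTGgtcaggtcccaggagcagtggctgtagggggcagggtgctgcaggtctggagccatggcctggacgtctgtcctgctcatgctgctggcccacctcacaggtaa
Vpreb1: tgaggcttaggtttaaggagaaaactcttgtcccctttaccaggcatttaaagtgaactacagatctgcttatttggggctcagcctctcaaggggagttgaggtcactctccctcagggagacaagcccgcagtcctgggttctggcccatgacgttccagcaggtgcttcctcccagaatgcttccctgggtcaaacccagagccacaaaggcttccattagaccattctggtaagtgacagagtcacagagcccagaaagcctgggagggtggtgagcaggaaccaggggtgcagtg
Pax5: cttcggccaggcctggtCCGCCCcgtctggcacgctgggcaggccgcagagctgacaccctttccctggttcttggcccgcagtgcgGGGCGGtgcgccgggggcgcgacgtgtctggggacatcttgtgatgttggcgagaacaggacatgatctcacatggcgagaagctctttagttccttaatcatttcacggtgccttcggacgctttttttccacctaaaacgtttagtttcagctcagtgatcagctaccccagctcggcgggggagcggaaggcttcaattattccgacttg
Lef1: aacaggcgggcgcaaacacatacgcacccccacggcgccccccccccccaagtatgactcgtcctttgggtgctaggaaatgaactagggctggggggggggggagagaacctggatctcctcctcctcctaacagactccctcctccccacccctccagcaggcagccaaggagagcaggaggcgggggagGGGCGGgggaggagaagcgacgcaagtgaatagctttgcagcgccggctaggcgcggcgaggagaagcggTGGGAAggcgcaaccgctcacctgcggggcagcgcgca

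The Cd79a peak ranked 98.0, 97.7, 97.8 and 97.1 in the 4 pro-B libraries, and its window holds an ETS core. The Pou2af1 peak ranked 96.5, 97.6, 97.0 and 97.7. Both therefore lie among the strongest peaks of every pro-B library. The Vpreb2 peak ranked 86.0, 84.7, 82.4 and 86.2, and its capitals mark an E-box that overlaps an IKAROS match. A separate gained region at the outer start of Vpreb2 (chr16:17979106-17979569) was weaker, with a mean rank of 42.6. The Vpreb1 peak ranked 72.2, 75.4, 67.7 and 67.3; no searched motif matched in its window or in that of Pou2af1. Vpreb1 and Vpreb2 are close paralogs, and how reads that fit both were assigned is not given in the sources used here. The Pax5 and Lef1 peaks were weaker, at mean ranks of 43.6 and 35.8, and both windows hold a GC box. Absence from the 40000 is not absence from the deposited list: at Pou2af1, 4 of 4 pre-pro-B libraries had a weaker deposited peak and at Cd79a 1 did, whereas at Vpreb2, Vpreb1, Pax5 and Lef1 none did.

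Promoter windows that lost their peak were fewer. Among them was that of Cd68, a macrophage gene (chr11:69666121-69666420, minus strand), printed for contrast. The window had a peak in 4 of 4 pre-pro-B libraries (ranks 75.5, 62.5, 77.8 and 76.0) and in no deposited pro-B list. Over the whole gene, however, Cd68 had more peaks in pro-B, with 1 gained and 1 lost region (its counts stand with the myeloid genes below). In the gene lists described below, the strongest lost window was that of Crlf2 (mean rank 89.4), with no deposited peak in any pro-B library. Over the whole gene, Crlf2 had 0 lost regions and 1 region with a peak in every library. Not all lost windows closed: at Ccnd3, Runx3 and Hmgb1, 4 of 4 pro-B libraries had a weaker deposited peak. At Itgam and Itgb7, some pro-B libraries did.
Cd68: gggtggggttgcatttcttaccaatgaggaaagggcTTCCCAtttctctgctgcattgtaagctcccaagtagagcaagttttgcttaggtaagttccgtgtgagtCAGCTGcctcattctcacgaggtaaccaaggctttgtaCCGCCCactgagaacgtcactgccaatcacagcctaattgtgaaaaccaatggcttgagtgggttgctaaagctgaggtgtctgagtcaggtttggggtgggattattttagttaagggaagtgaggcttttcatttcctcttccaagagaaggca

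Over 21045 promoter windows of 17274 genes, 365 windows gained a peak in all 4 pro-B libraries with none in pre-pro-B, and 229 did the reverse. The EBF motif was in 16.4% of the gained windows, 7.42% of the lost ones and 7.33% of all promoters. The E-box was in 22.5%, 18.3% and 15.7% of them. Lost windows differed in other motifs: the PU.1-type ETS motif, bound by a factor of myeloid and B cells, was in 10.9% of lost windows, 2.74% of gained ones and 3.15% of all promoters, the IRF motif in 19.7%, 6.58% and 9.63%, and RUNX in 8.73%, 3.56% and 4.74%. The GC box was in 36.2% of lost and 60.3% of gained windows and in 46.7% of all promoters, so base composition differed between the sets too. These shares describe letters in the windows, and no test was made of them.

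The 8 libraries' peaks joined into 63836 regions. Of these, 9705 (15.2%) had a peak in 4 of 4 pro-B and 0 of 4 pre-pro-B libraries and are called gained here, and 9910 (15.5%) showed the reverse and are called lost. A further 19652 (30.8%) had a peak in all 8. The overlap of 2 libraries was taken as the base pairs covered by peaks in both over those covered in either. It was 0.694 to 0.778 between pre-pro-B libraries and 0.751 to 0.821 between pro-B libraries. For the 16 pairs from different stages it was 0.351 to 0.412. Unlike a share of regions, this overlap is lowered where peaks differ in width, as they did between the stages. Gained and lost regions lay mostly away from gene ends: 9.33% of gained and 6.55% of lost regions were within 1 kb of one, against 47.5% of the regions present in all 8. Gained regions were narrower, with a median of 514 bp against 780 bp for lost ones, as were pro-B peaks altogether. In 5662 gained (58.3%) and 5805 lost regions (58.6%), no library of the other stage had even a weaker deposited peak; in 1606 and 1798, all 4 did.

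**Figure D1:**
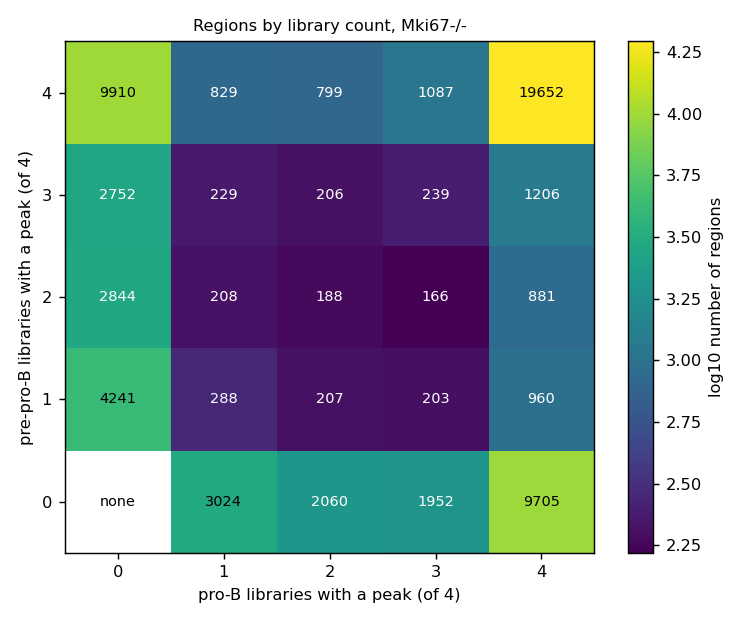
Number of regions by how many of the 4 Mki67-/- pre-pro-B libraries (vertical axis) and how many of the 4 Mki67-/- pro-B libraries (horizontal axis) had a peak; colour gives the log10 of the number. The corners for all or none of a stage hold 9705, 9910 and 19652 regions, more than any cell between them.

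The strongest gained region was a peak at chr14:32950596-32951464, outside any gene, 8082 bp from the nearest end of Wdfy4, a gene of antigen cross-presentation. It ranked 99.9, 99.8, 99.9 and 99.8 in the 4 pro-B libraries, and no pre-pro-B library had a deposited peak there. The next were inside Alpl (chr4:137788380-137789239, mean rank 99.8), Nup210 (chr6:91100427-91101285, 99.8) and Dnah1 (chr14:31313173-31314121, 99.7), and at a gene end of Gpr152 (chr19:4144545-4145405, 99.5). Inside Kank1, a sixth (chr19:25315585-25316354, mean rank 99.4) had a weaker deposited peak in all 4 pre-pro-B libraries. So gained regions reached the very top of the pro-B lists. Lost regions did not reach as high in the pre-pro-B lists: the strongest, inside Dffb, a nuclease subunit gene (chr4:153967297-153968334), ranked 97.8, 95.4, 93.5 and 97.7. It was followed by regions near Gm4606 (chr14:72819715-72820704, mean rank 94.6) and Cd180 (chr13:102689527-102690284, 93.9), inside Svil (93.5), near Myh14 (chr7:44674670-44675714, 93.4) and inside Bmerb1 (chr16:14087989-14088935, 93.3). The region near Cd180, a B-cell surface receptor of the Toll-like family, kept a weaker deposited peak in all 4 pro-B libraries. By gene, Trio held the most gained regions (16, with 6 lost), then Gse1 (14 and 4), Msi2 (13 and 3) and Slit1 (13 and 0). Foxp1, a forkhead factor needed for B-cell development, held the most lost regions, 15, beside 12 gained, followed by Hdac9 with 13 lost and 4 gained.

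Peaks were then counted per protein-coding gene, over its body and 10 kb on either side, and log2(peaks + 1) was compared between stages with limma across 15796 genes that had a peak in at least 4 of the 8 libraries. At an adjusted p under 0.05, 3525 genes (22.3%) had more peaks in pro-B and 3012 (19.1%) had fewer. In 2760 (17.5%) and 2455 genes (15.5%), every pro-B library lay above, or below, every pre-pro-B library. The calls include 897 genes with peaks in 1 stage only, 441 in pro-B and 456 in pre-pro-B; such genes passed the filter only through the stage where they are high and had to differ, so their peaks are given below with no fold or p. Among the 14899 tested genes with peaks in both stages, 3084 (20.7%) had more and 2556 (17.2%) fewer peaks in pro-B. The count weighs a narrow peak like a wide one. When the length covered by peaks per gene was compared instead, 1682 genes rose and 7732 fell, the median gene moved by -0.31 on the log2 scale, and 69.1% of the calls made on peak numbers remained in the same direction. With all deposited peaks in place of the strongest 40000, 51.6% of the calls remained. In 14 gene lists described below, length covered gave more falls than rises in 12, the exceptions being the B-lineage transcription factors and the receptor genes. Fold changes below are differences of log2(peaks + 1), which understate changes in genes with few peaks.

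First in order of p for a rise was Plppr1 (chr4:49059462-49340261), a membrane protein gene of the lipid phosphate phosphatase family, which went from 0 in each to 7, 6, 8 and 7. Lama4, a laminin chain gene, went from 0 in each to 6, 6, 6 and 5, Alpl, the tissue-nonspecific alkaline phosphatase gene, from 0 in each to 7, 5, 6 and 5 and Hs3st2, a heparan sulfate sulfotransferase gene, from 0 in each to 7, 4, 6 and 6. Gas6, a ligand of TAM receptors, went from 0 in each to 5 in each, and Rtn4r, the Nogo receptor gene, likewise from 0 in each to 5 in each. These 6 had no peak among the 40000 of any pre-pro-B library. Others next in order already had some: Stx8, a syntaxin gene, went from 4, 3, 3 and 3 to 14, 16, 13 and 13 (log2 fold 1.82 ± 0.11 SE, adjusted p = 5.21e-12), and Tgfbr3, a TGF-beta co-receptor, from 1, 1, 1 and 2 to 10, 12, 11 and 10. Wdr66 went from 2 in each to 9, 9, 10 and 9, Cplx2 from 1, 2, 1 and 1 to 8, 8, 9 and 8 and Megf6 from 1 in each to 7, 6, 6 and 7. No pre-pro-B library overlapped a pro-B library in any of these 11. They were picked by smallest p, so this separation comes with the choice and adds no support (17.5% of all genes tested rose without overlap).

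Among falls, Ror1 (chr4:100095791-100444806), a receptor tyrosine kinase gene, had the smallest p and went from 9 in each to 1 in each (log2 fold -2.32 ± 0.12 SE, adjusted p = 5.02e-13). Fars2, a mitochondrial tRNA synthetase gene, went from 12, 12, 10 and 13 to 2 in each (log2 fold -2.08 ± 0.11 SE, adjusted p = 1.12e-12). Cd8b1, the CD8 beta chain gene of T cells, went from 6 in each to 0 in each, and none of its 6 lost regions had a deposited peak in any pro-B library. Cadm1, an adhesion molecule gene, went from 10, 8, 7 and 7 to 1 in each, Cd200r3, a CD200 receptor family gene, from 8, 9, 9 and 9 to 2 in each and Kynu, the kynureninase gene, from 5, 6, 6 and 5 to 0 in each. Diaph3 went from 8, 7, 8 and 8 to 1 in each, Dclk1 from 5, 6, 6 and 6 to 0 in each, Hpcal1 from 8, 8, 7 and 7 to 1 in each, Grm8 from 7 in each to 1 in each, Eepd1 from 13, 11, 10 and 11 to 2, 3, 2 and 2 and Hpse2 from 9, 9, 8 and 9 to 2 in each. The stages did not overlap in any of these 12 genes either, which were likewise picked by smallest p (15.5% of all genes tested fell without overlap). Each gene's window includes 10 kb on both sides, so peaks can be shared with neighbours: the windows of 13 of the genes named in these paragraphs overlap no other protein-coding gene's window, and the rest overlap some (Megf6 with 3 genes, Stx8 and Wdr66 with 2).

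Among 20 transcription factors of the B lineage, 14 had more peaks in pro-B and 1 had fewer, against 22.3% and 19.1% of all genes tested. The median log2 change was 0.43 against 0 over all genes. Of the 14, 1 had peaks in pro-B only, and among the 19 other members the median was 0.39. With all deposited peaks 8 of the 20 rose and 2 fell, where 2918 of 17091 genes rose and 3437 fell. The median was above 0 also with all deposited peaks, the strongest 20000, gene bodies alone and length covered, though only 0.01 in the last, where 8 rose and 3 fell. Ebf1 (chr11:44618100-45008096), the pioneer of the B-cell program, went from 6, 7, 4 and 3 to 19, 16, 16 and 18 (log2 fold 1.65 ± 0.17 SE, adjusted p = 4.22e-06), and every pro-B library had at least 9 peaks more than any pre-pro-B library. It held 9 gained regions and no lost one, and the strongest of the 9 were at chr11:44950308-44950770 (mean rank 88.5) and chr11:44928334-44928882 (87.4). Pax5 (chr4:44524748-44710694), the commitment factor, went from 7, 7, 6 and 6 to 13, 12, 12 and 13 (log2 fold 0.85 ± 0.09 SE, adjusted p = 1.05e-07). It exchanged sites as well as adding them: 8 gained regions, one of them the promoter printed above, stood beside 4 lost ones, of which the strongest (chr4:44624204-44625372) had a mean rank of 71.2 in pre-pro-B cells and no deposited peak in any pro-B library.

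Erg, an ETS factor of stem and early B cells, went from 6, 6, 6 and 7 to 14, 16, 14 and 13 (log2 fold 1.07 ± 0.10 SE, adjusted p = 2.78e-09), with 9 gained and 2 lost regions. Pou2af1, the octamer coactivator gene, went from 0 in each to 2, 2, 2 and 3. Ikzf3, which encodes the Ikaros family member Aiolos, went from 3, 3, 4 and 5 to 9, 8, 9 and 9 (adjusted p = 4.49e-07), but not with all deposited peaks, where its log2 change was -0.20. Ikzf1 (Ikaros) rose less, from 7, 8, 7 and 9 to 10, 11, 10 and 10 (adjusted p = 0.00403). Tcf3 (E2A) rose from 4 in each to 6 in each (adjusted p = 0.000827), as did Spib from 4, 3, 3 and 4 to 6 in each, Irf8 from 5, 4, 3 and 4 to 7, 7, 7 and 6, Lef1 from 5, 6, 6 and 5 to 10, 8, 8 and 8, Pou2f2, Fli1, Runx1 and Irf4. Bach2, a repressor that favours B over myeloid fate, was the one factor that fell, from 23, 19, 20 and 20 to 15, 14, 14 and 13 (log2 fold -0.52 ± 0.08 SE, adjusted p = 1.02e-05); it held 9 lost and 3 gained regions. Myb, Spi1 (PU.1), Foxo1, Ets1 and Bcl11a did not pass the test; Foxo1 had 7, 6, 7 and 6 peaks in the pre-pro-B and 7, 6, 7 and 7 in the pro-B libraries, and Ets1 10, 9, 10 and 9 peaks in the pre-pro-B and 10, 10, 10 and 9 in the pro-B libraries.

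**Figure D2:**
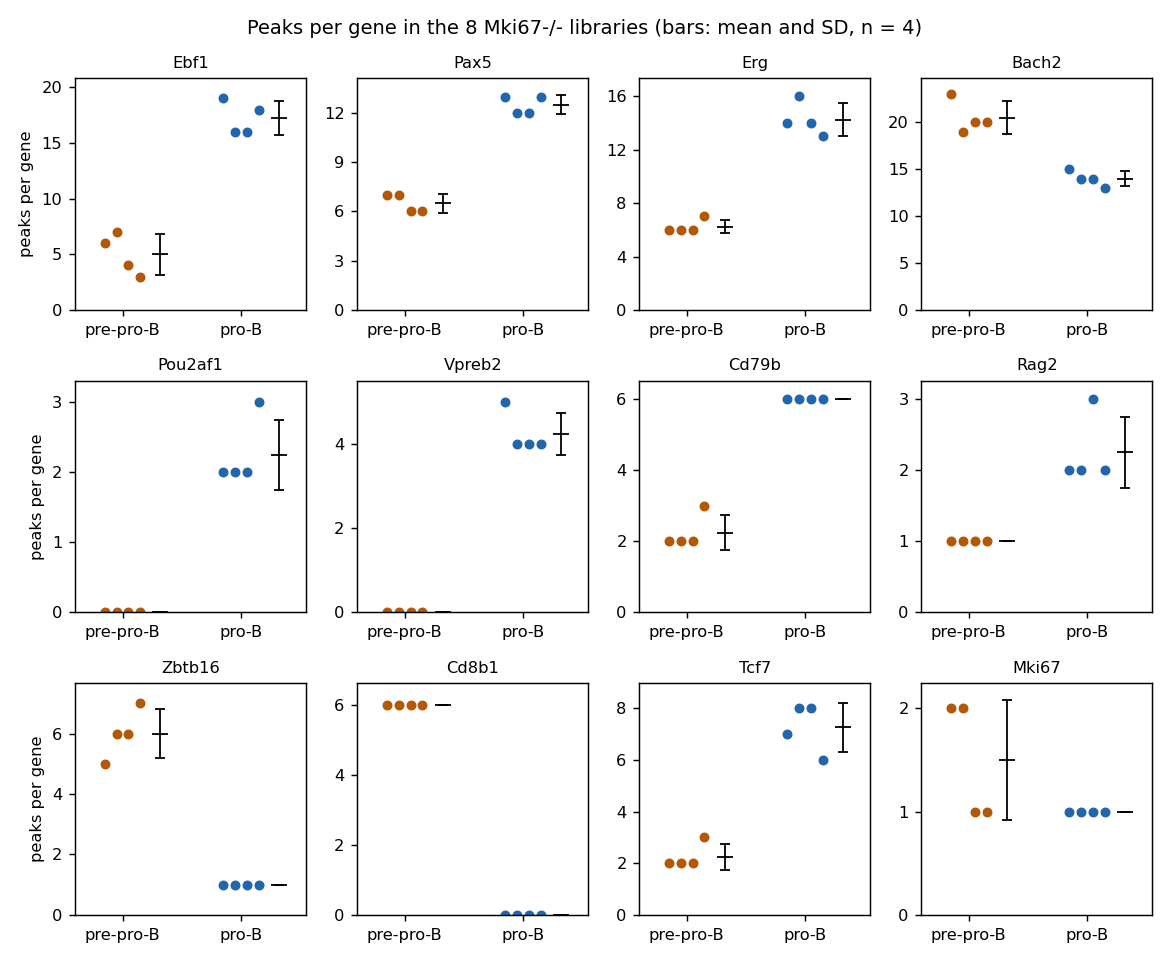
Peaks per gene (vertical axis, body and 10 kb on both sides) in each of the 4 Mki67-/- pre-pro-B and 4 Mki67-/- pro-B libraries, 1 point per library, with the mean and SD of each stage beside them. The stages do not overlap in 11 of the 12 genes, all 11 picked from genes called as changed. Over all genes tested, 17.5% rose and 15.5% fell without overlap. In Mki67, 2 pre-pro-B libraries share the value 1 with the pro-B libraries.

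Of 20 genes of the surrogate light chain, the receptor complex and its signalling, 11 had more peaks in pro-B and 3 had fewer. The shares over all genes tested were 22.3% and 19.1%. The median log2 change of the list was 0.46, and 0.17 by length covered with 8 higher and 6 lower. With all deposited peaks 7 were higher and 4 lower. Of the 11, 2 had peaks in pro-B only, which leaves 9 of 18 with more peaks and a median of 0.34. Vpreb2, of the surrogate light chain, went from 0 in each to 5, 4, 4 and 4. Vpreb1 went from 2, 2, 2 and 1 to 5, 7, 5 and 5 (adjusted p = 6.47e-07) and Vpreb3 from 2 in each to 5, 6, 5 and 6; Igll1, the lambda5 gene, went from 3, 3, 3 and 2 to 6, 8, 6 and 5. The windows of Igll1 and Vpreb1 overlap and share peaks. Cd79b went from 2, 2, 2 and 3 to 6 in each (log2 fold 1.12 ± 0.13 SE, adjusted p = 1.38e-07) and Cd79a from 4, 3, 4 and 4 to 7, 7, 6 and 6 (adjusted p = 6.78e-05). In the signalling chain, Bank1, the adaptor Blnk, Plcg2 and the kinase Btk rose; Btk went from 2, 3, 3 and 3 to 4, 4, 4 and 5 and Plcg2 from 8, 8, 7 and 7 to 11, 11, 9 and 11. Ralgps2 fell from 8, 8, 6 and 6 to 3 in each (adjusted p = 4.28e-07). The kinases Blk (6, 6, 4 and 6 to 4 in each, adjusted p = 0.0195) and Syk (9, 8, 9 and 9 to 8, 7, 7 and 7, adjusted p = 0.0492) fell with stages that touched; the Blk log2 change was positive, at 0.37 with all deposited peaks and 0.21 among the strongest 20000. The Blk call was lost without pre-pro-B replicate 1 or 2 (adjusted p = 0.0556 and 0.0576), and the Syk call without any one of 6 of the 8 libraries (adjusted p from 0.0965 to 0.110).

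Genes of V(D)J recombination and end joining did not move together: of 14, 3 had more peaks and 4 had fewer. These shares lie near the background of all genes (22.3% and 19.1%). The balance depended on the measure. With all deposited peaks 5 were higher and 1 lower, where 2918 and 3437 of 17091 genes were. By length covered 3 were higher and 9 lower, where 1682 and 7732 of 15796 genes were. Rag2 went from 1 in each to 2, 2, 3 and 2 (log2 fold 0.69 ± 0.18 SE, adjusted p = 0.0028), with a promoter window that gained a peak in 4 of 4 pro-B libraries (mean rank 66.8), but its count did not differ among the strongest 20000 peaks. Rag1 had 2, 2, 1 and 3 peaks in the pre-pro-B and 2 each in the pro-B libraries, and Dntt, which encodes the polymerase that adds untemplated bases to joints, had 5, 5, 5 and 6 peaks in the pre-pro-B and 5, 6, 6 and 7 in the pro-B libraries; neither passed the test (adjusted p = 1 and 0.308). The ligase gene Lig4 went from 2 in each to 3 in each and its partner Xrcc4 from 1, 1, 2 and 1 to 3, 2, 2 and 3. Nhej1, Xrcc5 (Ku80), Atm and Hmgb1 fell, Atm and Xrcc5 each from 2 in each to 1 in each; these are changes of about 1 peak, and Hmgb1 turned to a rise of 0.29 with all deposited peaks.

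Across the antigen receptor loci, each taken over all of its annotated segments, the heavy chain locus changed by far the most peaks. Igh (chr12:113256204-116009954) held 39, 38, 44 and 32 peaks in pre-pro-B and 110, 106, 108 and 113 in pro-B libraries. Igk (chr6:67555636-70726754), whose rearrangement belongs to a later stage, went from 15, 16, 11 and 12 to 29, 29, 25 and 21. Igl went from 7 in each to 5 in each. Tcra/Tcrd, the T-cell receptor alpha and delta locus, fell from 36, 37, 38 and 31 to 20, 16, 16 and 17, and Tcrg, the gamma locus, from 9, 10, 9 and 7 to 4, 5, 3 and 3. Tcrb went from 9, 7, 9 and 8 up to 11, 11, 10 and 10, a direction that reversed with all deposited peaks (by -9.25 peaks) and among the strongest 20000 (by -0.25). In each of the 6 loci the stages did not overlap (exact permutation test, p = 0.0286, adjusted p = 0.0286 over the 6). All 6 lost an adjusted p under 0.05 among the strongest 20000 peaks, where Igh still had 8 against 34.75 peaks on average (adjusted p = 0.0857), and Igk lost it without pre-pro-B replicate 3 (adjusted p = 0.0571).

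The heavy chain gain lay in the span of the variable (V) segments, counted with the DNA between them. In a split of the locus made after these counts were seen, the J and C segments (chr12:113256204-113429833) held 6, 5, 5 and 5 peaks in pre-pro-B and 6 in each pro-B library. The V span was cut at its midpoint. The portion nearer to J went from 8, 6, 12 and 7 to 33, 31, 33 and 35 peaks, and the far portion from 21, 23, 24 and 16 to 66, 67, 63 and 68. Of 183 annotated V segments, 22.75 ± 4.92 had a peak within 1 kb in pre-pro-B and 54.75 ± 2.87 in pro-B cells (SD, n = 4 each). In Igk the change was unequal along the locus. Its V portion far from J went from 8, 7, 6 and 6 to 22, 21, 19 and 16 peaks, whereas the portion near J had 4, 6, 2 and 3 and then 4, 5, 3 and 2, and the J and C segments had 1 in all 8. For the 3 V portions whose stages did not overlap the exact permutation p was 0.0286, and 0.0571 when adjusted over the 6 portions.

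**Figure D3:**
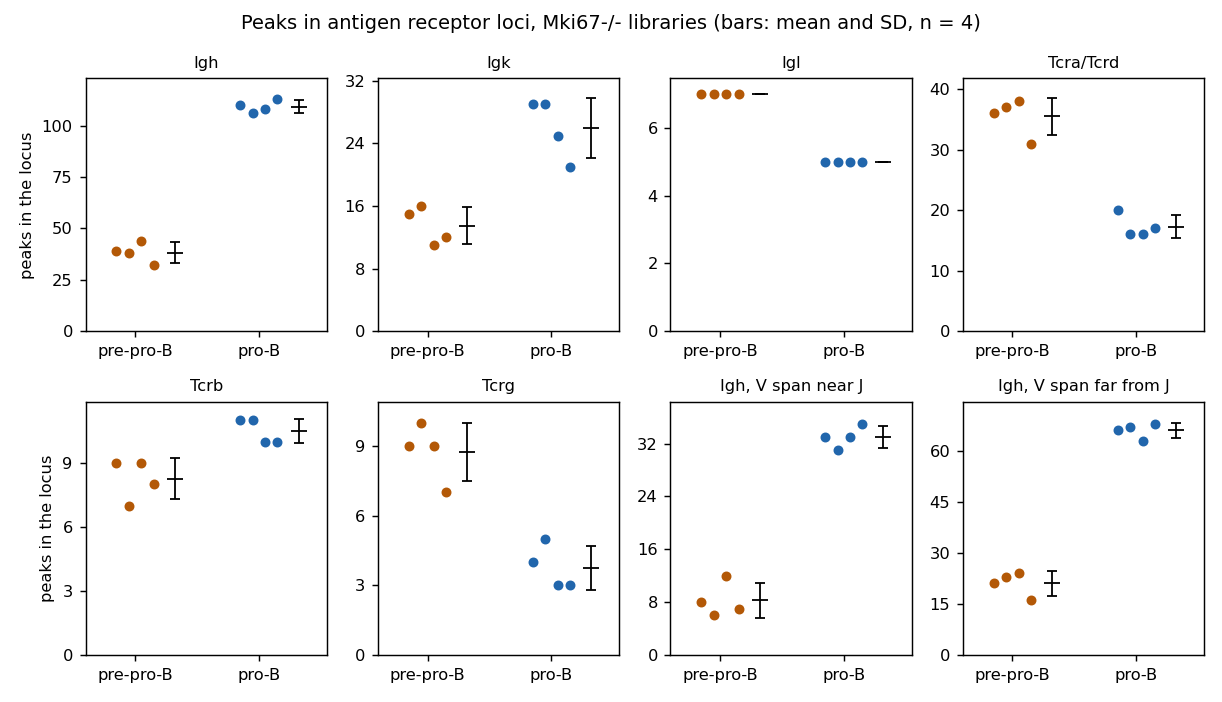
Peaks (vertical axis) in the 6 antigen receptor loci and in the portions of the Igh V span nearer to and farther from J, cut at its midpoint, 1 point per Mki67-/- library, with the mean and SD of each stage. Igh rises from 32 to 44 peaks in pre-pro-B to 106 to 113 in pro-B libraries, and Tcra/Tcrd and Tcrg fall.

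Cytokine signalling genes, which relay IL-7 and Flt3 ligand, changed at or below the background rates: of 18, 4 had more peaks and 2 had fewer. Flt3, the receptor that marks early progenitors, fell from 9, 10, 9 and 9 to 7, 6, 7 and 7 (log2 fold -0.40 ± 0.10 SE, adjusted p = 0.00161). Il7r (2 in each to 2, 3, 3 and 2, adjusted p = 0.308), Jak1, Jak3 and Stat5a did not pass the test. The largest rise was in Socs2, a feedback inhibitor, from 0, 1, 0 and 1 to 5, 7, 6 and 5 (log2 fold 2.24 ± 0.23 SE, adjusted p = 1.45e-06), and the survival gene Bcl2 fell from 9, 12, 11 and 12 to 5, 5, 6 and 6 (log2 fold -0.88 ± 0.11 SE, adjusted p = 4.30e-07). Ccnd3, the D-type cyclin of pre-B cells, went from 12, 11, 11 and 12 to 15, 15, 14 and 16. Among 20 stem and multipotent progenitor genes, 4 had more peaks and 6 had fewer, against 22.3% and 19.1% of all genes tested. Of the 4, 1 had peaks in pro-B only. Msi2, an RNA-binding regulator, went from 15, 14, 13 and 13 to 25, 24, 26 and 22 (log2 fold 0.78 ± 0.08 SE, adjusted p = 1.82e-08). Prdm16 went from 4, 5, 4 and 5 to 0, 0, 0 and 2, Mecom (Evi1) from 5, 5, 5 and 3 to 3, 1, 2 and 1 and Hoxa9 from 4, 4, 4 and 5 to 2, 2, 4 and 3; Meis1 fell from 9, 9, 8 and 8 to 6, 4, 6 and 6, except with all deposited peaks (0.09).

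Markers of other cell types were followed because the pre-pro-B gate can hold progenitors with other potential, and their part in the results above was not tested. Of 26 T, NK and innate lymphoid genes, 12 had fewer peaks in pro-B and 2 had more (median log2 change -0.29). The shares over all genes tested were 19.1% and 22.3%. By length covered 19 of the list fell and 2 rose, where 7732 of all 15796 genes tested fell and 1682 rose. Among the strongest 20000 peaks 6 of 20 fell and 4 rose. Of the 12 list members with fewer peaks, 3 had peaks in pre-pro-B only, which leaves 9 of 23. Peaks of all 26 list members summed to 93, 99, 106 and 106 in pre-pro-B and to 76, 79, 77 and 75 in pro-B libraries. Zbtb16 (PLZF), a factor of innate lymphocytes, went from 5, 6, 6 and 7 to 1 in each (log2 fold -1.80 ± 0.14 SE, adjusted p = 2.07e-10), and Il18r1 from 5, 5, 6 and 6 to 1, 1, 1 and 2. Among defining T-cell genes, Cd8a went from 2, 2, 3 and 3 to 0 in each, Cd3e from 1, 2, 1 and 1 to 0 in each and Bcl11b from 1, 1, 3 and 1 to 0 in each, so all 3 were at 0 in every pro-B library. Cd4 fell from 5, 6, 6 and 6 to 4, 2, 3 and 2, while Cd3g (3, 3, 3 and 2 to 2, 3, 3 and 2), Thy1 and Gata3 did not pass the test. The 2 that rose are also used early in T cells: Tcf7 (TCF-1) went from 2, 2, 2 and 3 to 7, 8, 8 and 6 (log2 fold 1.35 ± 0.13 SE, adjusted p = 1.12e-08), and the Notch target Hes1 from 1, 1, 2 and 1 to 4 in each, except with all deposited peaks (-0.0029).

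Of 20 myeloid genes 16 were tested, of which 6 fell and 2 rose, against 19.1% and 22.3% of all genes tested. Their median log2 change was -0.07. Peaks of all 20 members summed to 49, 43, 49 and 48 in pre-pro-B and to 36, 39, 39 and 37 in pro-B libraries. Itgam (CD11b) went from 8, 7, 7 and 10 to 4, 4, 3 and 4 (log2 fold -0.92 ± 0.12 SE, adjusted p = 1.62e-06) and Csf3r, the G-CSF receptor gene, from 3, 3, 4 and 3 to 1 in each. Fcgr3 rose from 2, 2, 3 and 2 to 4, 4, 4 and 5 and Cd68 from 4, 3, 3 and 3 to 5, 5, 5 and 4 (adjusted p = 0.00669), but the Cd68 log2 change was negative with all deposited peaks (-0.09), among the strongest 20000 (-0.10) and in the gene body alone (-1). Mpo had 1 and Gfi1 3 peaks in all 8 libraries. Lyz2, Adgre1, S100a8 and S100a9 had a peak in fewer than 4 libraries and were not tested. Plasmacytoid dendritic genes split evenly, 3 of 14 each way, where 22.3% of all genes tested were higher and 19.1% lower. Of the lower, 1 had peaks in pre-pro-B only. With all deposited peaks 0 were higher and 7 lower. Sums were 55, 49, 45 and 53 against 53, 55, 54 and 55. Siglech fell from 4, 3, 3 and 3 to 2, 2, 1 and 1 and Cox6a2 went from 1, 2, 2 and 2 to 0 in each. Pacsin1 rose from 2 in each to 7, 8, 7 and 8 and Runx2 from 7, 6, 6 and 7 to 12 in each. The Runx2 change was negative, at -0.63, with all deposited peaks. Of the erythroid and megakaryocyte genes, Gata1, Alas2 and Car1 had too few libraries with a peak to be tested. Of the 12 tested, 3 had more peaks, 1 of them with peaks in pro-B only, and 2 had fewer. The shares over all genes tested were 22.3% and 19.1%. The largest change was in Gfi1b, from 2, 1, 2 and 2 to 6, 7, 5 and 6. Over all 16 members of the list, peaks summed to 37 to 39 in pre-pro-B and 39 to 42 in pro-B libraries.

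**Figure D4:**
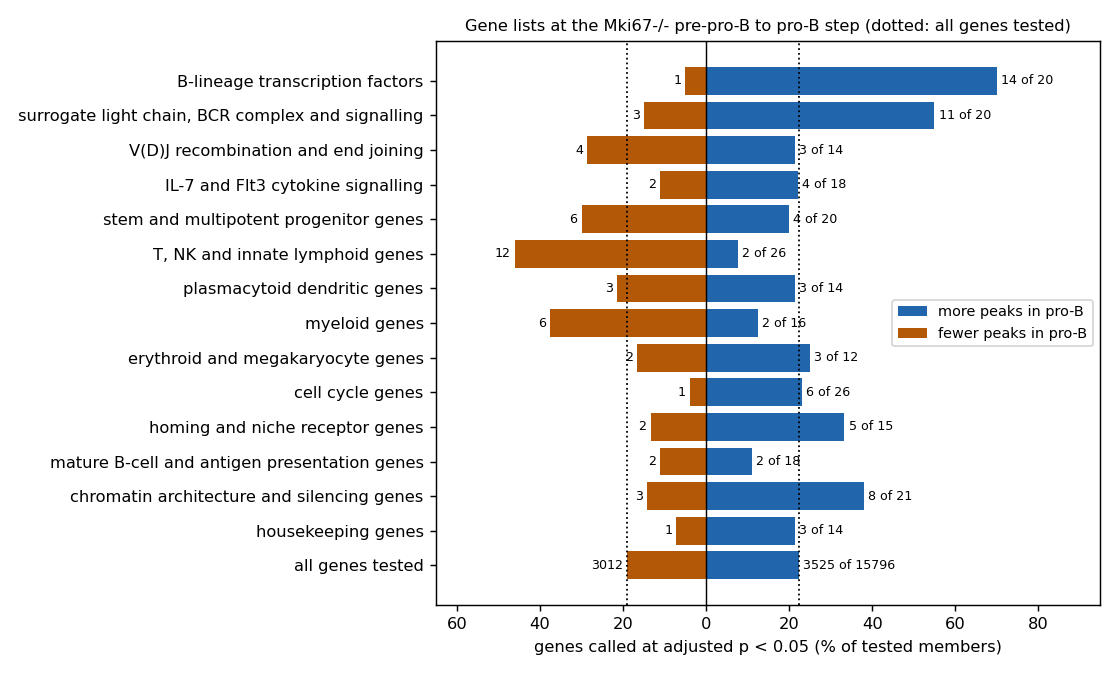
Share of tested members (horizontal axis, percent) of each of 14 gene lists with more (right) or fewer (left) peaks in Mki67-/- pro-B than pre-pro-B cells at an adjusted p under 0.05, with the numbers of genes beside the bars. The dotted lines give the share of all genes tested, 22.3% and 19.1%; B-lineage transcription factors reach 14 of 20 on the right and T, NK and innate lymphoid genes 12 of 26 on the left.

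Mki67 itself (chr7:135689784-135716450) had 2, 2, 1 and 1 peaks in the pre-pro-B and 1 each in the pro-B libraries and did not pass the test (adjusted p = 0.25). The position of the deletion is not given in the sources used here, so a remaining peak at the gene does not test the genotype. Among 26 cell cycle genes, 6 (23.1%) rose and 1 (3.85%) fell, against 22.3% and 19.1% of all genes tested, with a median of 0; the share that rose is near that of all genes. Aurkb, the mitotic kinase Aurora B, went from 4, 4, 4 and 5 to 8 in each (log2 fold 0.78 ± 0.11 SE, adjusted p = 2.21e-06), Plk1 from 1 in each to 2, 2, 2 and 3 and Cdkn2a, the p16 and p19 inhibitor locus, from 0, 0, 0 and 1 to 2, 2, 3 and 2. Cdk6 rose from 9, 11, 9 and 11 to 17, 14, 12 and 13, but not by length covered (-0.30). Rbl1 (p107) fell from 5, 4, 5 and 5 to 3, 3, 1 and 1. The core replication and mitosis genes Mcm2, Pcna, Ccnb1, Ccna2 and Cdk1 had the same number of peaks in all 8 libraries, 1 to 3 each.

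Of 21 genes for chromatin architecture and silencing, 8 had more peaks and 3 had fewer, against 22.3% and 19.1% of all genes tested. That balance turned by length covered (2 higher, 11 lower) and with all deposited peaks (4 and 8). By length covered the list is near the share of all genes tested, where 1682 were higher and 7732 lower of 15796. With all deposited peaks 2918 genes were higher and 3437 lower of 17091. The class IIa histone deacetylase genes parted: Hdac9 fell from 19, 19, 15 and 16 to 6, 9, 6 and 6 (log2 fold -1.25 ± 0.12 SE, adjusted p = 6.89e-08) and Hdac4 from 15, 12, 15 and 12 to 6, 5, 6 and 5 (log2 fold -1.15 ± 0.10 SE, adjusted p = 3.79e-09), whereas Hdac7, which represses other lineages in B-cell progenitors, rose from 5, 5, 6 and 5 to 10 in each (log2 fold 0.82 ± 0.10 SE, adjusted p = 4.09e-07). Lbr, the lamin B receptor gene, fell from 3 in each to 1 in each. Ctcf and Ezh2 did not pass the test. Of 15 homing and niche receptor genes, 5 rose and 2 fell, against 22.3% and 19.1% of all genes tested. These counts turned to 2 and 7 with all deposited peaks, where the counts over all genes are those given above. Cd44, an adhesion receptor, went from 6 in each to 3 in each (log2 fold -0.81 ± 0.11 SE, adjusted p = 2.68e-06) and the integrin gene Itga4 from 2, 2, 2 and 3 to 1 in each, while the chemokine receptor gene Cxcr5 rose from 3, 3, 3 and 2 to 4, 5, 4 and 4 and Cd93, a marker of immature B cells, from 1 in each to 2 in each; Cxcr5 had a log2 change of -0.05 with all deposited peaks. Of 18 mature B-cell and antigen presentation genes, 2 rose and 2 fell, against 22.3% and 19.1% of all genes tested. Among the strongest 20000 peaks 6 rose and 2 fell of 17, and with all deposited peaks 1 rose and 5 fell of 18. Ms4a1 (CD20), Cr2, Cd40 and H2-Aa did not pass the test; Cr2 and Cd40 had 2 peaks in all 8 libraries. Among 14 housekeeping genes, 3 rose and 1 fell, against 22.3% and 19.1% of all genes tested. These were led by Actb, from 4, 4, 3 and 4 to 6, 7, 6 and 7, which did not rise by length covered (-0.08).

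The same step in WT mice gave 3810 genes (24%) with more and 3217 (20.3%) with fewer peaks of 15859 tested. Of 6439 Mki67-/- calls in genes tested in both genotypes, 5404 had the same call in WT, which is 83.9% of the Mki67-/- and 78.5% of the WT calls; 4 had opposite calls and 1031 had none in WT. At the level of regions, 7852 gained (80.9%) and 8167 lost (82.4%) showed the same pattern of 4 and 0 libraries in WT. The 2 genotypes share no library, and the log2 changes correlated with r = 0.928 across genes, which are not independent replicates. Means of peaks moved alike at the named genes: in WT, Ebf1 went from 4.75 to 17.5, Pax5 from 7.5 to 13, Vpreb2 from 0 to 4.25, Zbtb16 from 6.25 to 2 and Cd8b1 from 6.25 to 0 (n = 4 each).

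When the difference between the 2 steps was tested in one limma model over the 16 libraries, 0 of 16217 genes (0%) had an adjusted p under 0.05, the smallest being 0.0683, while 707 had an unadjusted p under 0.05. Other settings called more, up to 98 genes when rounding to whole peaks was left out of the variance, 41 by length covered and 22 with replicate number as a block. Among the genes nearest to a call, Pknox2 went from 1 in each to 4, 3, 4 and 2 in Mki67-/- libraries and from 4, 2, 3 and 2 to 2 in each in WT (log2 difference of the steps 1.35 ± 0.25 SE, adjusted p = 0.0873). Cttn, Pparg and Cenph also had a positive difference. Cttn lies on chromosome 7, as Mki67 does; its linkage to the targeted gene was not tested. In the other direction, Kynu ended at 0 in each Mki67-/- and at 1 in each WT pro-B library (adjusted p = 0.0683), and Mark1 likewise at 0 and 1 (adjusted p = 0.0873), followed by Ccnc, Lsamp and Pkib. All of these miss the threshold.

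**Figure D5:**
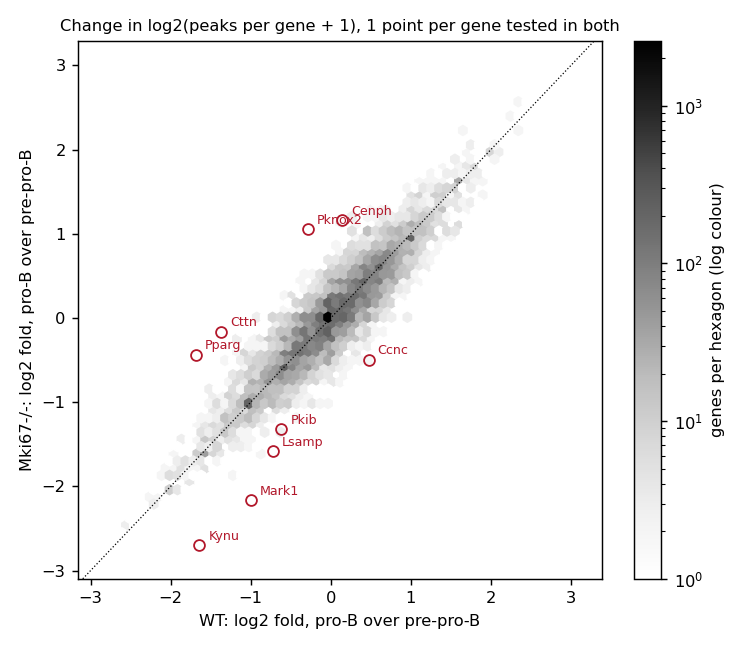
Change in log2(peaks per gene + 1) from pre-pro-B to pro-B in WT (horizontal axis) and Mki67-/- cells (vertical axis) for 15671 genes tested in both, with shade giving genes per hexagon on a log scale. The cloud follows the dotted line of equal change (r = 0.928 across genes); circles mark the 9 genes named above for their difference, none of which passed the threshold after adjustment.

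At the receptor loci the step did not differ between genotypes beyond the spread. In WT, Igh rose from 35.25 ± 6.70 to 94.75 ± 5.5 peaks against 38.25 ± 4.92 to 109.25 ± 2.99 in Mki67-/- cells (SD, n = 4 each; exact permutation test of the difference, p = 0.131, adjusted p = 0.755 over 6 loci). In the V portion far from J the pro-B counts were 56, 54, 58 and 62 in WT, all below the 63 to 68 of Mki67-/- libraries, and the pre-pro-B counts were 16, 27, 14 and 19. Igk went from 12 ± 2.45 to 25.25 ± 4.43 in WT, against 13.5 ± 2.38 to 26 ± 3.83 (adjusted p = 1), and the adjusted p was at least 0.755 for the other loci. For width, too, no difference between the steps passed the test. The mean width of the 40000 fell by 195 bp in Mki67-/- cells, from 754 ± 75.6 to 559 ± 38.6 bp. In WT the fall was larger, from 829 ± 80.3 to 544 ± 12.9 bp (p of the difference 0.151, adjusted p 0.452, exact permutation test).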

How the data were processed

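Peaks of 16 ATAC-seq libraries (Mki67-/- and WT, pre-pro-B and pro-B, 4 each) were analysed. Per the submitters' processing notes, the authors used Trimmomatic, MACS2, deepTools, DiffBind and DESeq2 on mm10; versions, roles and settings are not given in the sources used here. The deposited narrowPeak lists, 1 per library, give each summit's fold enrichment (a ratio over the library's own background) and its -log10 p and -log10 q by the authors' peak caller; these served to order and select peaks inside a list, never to compare lists. The lowest -log10 q was about 2 in each list. Entries overlapping or touching were joined, and the 40000 strongest by -log10 q were kept. Gene limits came from RefSeq (GRCm38.p6, without strand; 21631 protein-coding genes), and promoter sequences from RefSeq tables of the same build; GRCm38 is the assembly behind mm10. All 262 entries of 14 gene lists matched a symbol.

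Peaks per gene were compared as log2(peaks + 1) with limma 3.58.1 in R 4.3.3, with a variance trend and robust moderation, Benjamini-Hochberg adjustment and a threshold of 0.05. In 4838 genes all 4 libraries of each stage had identical counts, so the variance of rounding to whole peaks (1/12 on the peak scale) was added to each gene's residual variance; this departs from the fit first written down, which is an alternative below. On simulated counts for 15796 genes of the Mki67-/- step, 94.5% of 200 genes changed 2-fold were recovered with 2 unchanged genes called, against 33.5% and 29 without the added variance. With 3000 genes changed 2-fold the gap was smaller: 98.3% and 23 with it, against 89.0% and 50 without it. The simulation gave all genes the same noise. For the difference between genotypes (16217 genes), 40.5% of 200 genes with a 2-fold and 96.5% with a 3-fold difference were recovered. The recovery in either simulation need not hold for genes with few peaks, where log2(peaks + 1) understates changes.

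Single values were compared by two-sided exact permutation tests. The members, gene lists, motifs and tests were chosen with earlier results of these data known. Named genes were Mki67, the 12 smallest p-values in each direction, up to 5 called members per list and direction, 5 genes per direction for the difference between genotypes, and 6 regions per direction by mean rank; a few of these genes are not reported here. Other list members named as not passing the test, and the WT means, were chosen after their values were seen. Background coverage, used as a covariate in one alternative, was estimated from fold enrichment and p-value of weak summits under a Poisson model. Alternatives changed the number of peaks, pseudocount, filter, gene window, overlap, covariate or block, or left out 1 library.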

Additional observations from a re-analysis of the deposited data

Results flagged for a closer look

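One named gene had a library that stood apart from the 3 others of its stage, by the ratio of its gap to the range of the 4 values, among genes whose 4 values spanned at least 3 peaks. Hdac9 had 6 peaks in 3 of the Mki67-/- pro-B libraries and 9 in pro-B replicate 2, a gap-to-range ratio of 1. Such a flag is raised by chance in about 1 of 20 groups. All 4 pro-B values stayed below the pre-pro-B values, which ran from 15 to 19.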

How the results depend on the processing

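With all deposited peaks, 2918 genes rose and 3437 fell, 51.6% of the 6537 calls remained and 129 had the opposite call. Among the strongest 20000, 41.6% remained and 224 were opposite; in the gene body alone 59.9% and 32, and by length covered (1682 higher, 7732 lower; chosen after the data were seen) 69.1% and 265. A pseudocount of 0.5, no filter, a coverage covariate and a replicate block kept 97.9% to 99.9% of the calls, none opposite. Without the added rounding variance (also chosen after the data were seen) 2990 rose and 2628 fell, with 84.7% of the calls kept. The exact permutation test per gene called 0 genes in either direction at its smallest p of 0.0286 (5215 genes; smallest adjusted p 0.0865). Genes whose step differs between genotypes numbered 2 among the strongest 20000, 4 at the pseudocount of 0.5, 7 in the gene body, 22 with the replicate block, 41 by length covered and 98 without rounding variance. Gained and lost regions numbered 5113 and 4750 among the strongest 20000, and lost ones 16779 with all deposited peaks. The step in covered length was -11.9 Mb for peaks whose -log10 q reached 5 and -10.9 Mb where it reached 10 (exact p = 0.0571 for both). Among the strongest 20000 the loci changed by 26.75 (Igh), 3.5 (Igk), -0.75 (Igl), -6.25 (Tcra/Tcrd), -0.25 (Tcrb) and -1 peaks (Tcrg), none with an adjusted p under 0.05; with all deposited peaks Tcrb changed by -9.25 and Tcrg by -5.25. The cause was not tested.

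Leaving out 1 library at a time gave 2840 to 3484 genes with more and 2434 to 2958 with fewer peaks, partly since fewer genes seen in a single stage then pass the filter; 0 to 1 genes whose step differed; 9872 to 10442 gained and 10078 to 10767 lost regions; steps of -10215.5 to -3780.5 in peaks, -15.4 to -10.2 Mb in covered length and 2.23 to 2.43 percentage points at gene ends; and steps of 68.9 to 72.9 (Igh), 11.5 to 14.2 (Igk), -2 (Igl), -19.75 to -17.4 (Tcra/Tcrd), 1.83 to 2.5 (Tcrb) and -5.58 to -4.58 (Tcrg). The exact p was 0.0286 at gene ends in all 8 of these runs, and for covered length 0.0286 without a pre-pro-B and 0.0571 without a pro-B library. Peaks per library had an exact p = 0.0286 without pre-pro-B replicate 4 and at least 0.257 otherwise. The loci kept an adjusted p under 0.05, except Igk without pre-pro-B replicate 3 (0.0571). Deviations of same-numbered libraries correlated at 0.015, -0.0012, 0.029 and 0.021, and those of the other pairs at -0.036 to 0.020. All of these are small, so they cannot tell whether libraries with the same number share a mouse. With the replicate block 3544 genes rose and 3065 fell.

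Of 114 named genes or list members over all alternatives, 1665 of 1853 values kept direction and call, 152 lost the call and 36 reversed. Log2 changes reversed among the strongest 20000 at Tnfrsf13b (0.42), Cd68 (-0.10), Blk (0.21), Cbx5 (-0.21), Bcl6 (-1.58), E2f1 (-0.26) and Cbx3 (-0.15). With all deposited peaks they reversed at Slamf1 (-0.042), Meis1 (0.090), Cd68 (-0.094), Ikzf3 (-0.20), Itga2b (-0.056), Blk (0.37), Cbx5 (-0.12), Bcl6 (-0.41), Hes1 (-0.0029), Runx2 (-0.63), Cd14 (0.21), Procr (-0.051), Hmgb1 (0.29), Hoxa7 (0.013), Ifitm3 (0.086) and Cxcr5 (-0.048), and in the gene body at Cd68 (-1). By length covered they reversed at Ackr3 (-0.0048), Polr2a (-0.18), Stat5b (-0.15), Rad21 (-0.39), Cbx5 (-0.14), Tcf4 (-0.17), E2f2 (-0.0065), Cdk6 (-0.30), Actb (-0.077), Cbx3 (-0.31) and Icam1 (-0.33).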
